A study of Rattus norvegicus with 862 samples.

Results

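Hearts of vehicle control rats that were harvested in the afternoon, 1 d after dosing began, were compared with hearts of vehicle control rats harvested in the morning, after 3 d or 5 d. The rats belong to a collection of 862 arrays in which groups of rats received a compound or its vehicle alone, and heart RNA was measured on a whole-genome rat microarray (GeneChip Rat Genome 230 2.0). Of 231 vehicle control arrays, which came from 229 animals, 12 were left out because title and labels disagree. The remaining control animals entered with 1 array each when vehicle, route and RNA extraction campaign, taken as 1 factor, held both a 1 d rat and a 3 d or 5 d rat. The 12 matched strata held 166 rats: 52 at 1 d and 114 in the morning, of which 55 were 3 d rats and 59 were 5 d rats.

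All were male Sprague Dawley (CD-IGS) rats, bought at 6 to 8 weeks of age, which received no compound and were kept with lights on from 6 to 18 h. By the labels the 0.25 d and 1 d harvests began at 13 h and the 3 d and 5 d harvests at 7 h. The hour of each single rat is not in the sources used here. The vehicles were corn oil, CMC, saline, water and a mixture of 10% Acacia, 0.25% PS80 and 0.5% Antifoam, given by oral gavage, intravenously, subcutaneously or by subcutaneous mini-pump. The 1 d and morning rats differ in harvest hour, in the number of days of dosing or infusion and by some days in age, so that these cannot be told apart in this comparison. By the labels the 3 d and 5 d rats differ in the days of dosing and in age, not in the planned hour. The rats came from 45 studies, 32 of which gave rats to both groups, with 1 to 6 rats per study and day, and their arrays from 32 hybridisation batches. No source used here says whether rats of 1 study shared a cage.

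The circadian clock is a feedback loop of transcription that runs in nearly every cell, heart muscle included. The activators BMAL1 and CLOCK (or its relative NPAS2) pair up, bind E-box sequences and switch on the Period and Cryptochrome genes, whose proteins return to the nucleus and repress that pair. In a second loop, REV-ERB receptors (Nr1d1 and Nr1d2) silence and ROR receptors activate Bmal1 through a shared DNA element. The PAR bZIP factors DBP, TEF and HLF activate genes with a D-box, to which the repressor NFIL3 (E4BP4) also binds. Rats are active in the dark, and by textbook knowledge Bmal1 RNA of peripheral tissues peaks near the start of the light phase while Dbp, Per3 and the REV-ERB genes peak in its middle or later part.

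The letters of these elements can be shown at 4 clock genes that held a match and whose levels are described below. They are an activator, a Period gene, a REV-ERB gene and a BHLHE40 family gene. No cryptochrome or PAR bZIP gene is shown. Each line gives the 250 bases before the gene's start in RefSeq on assembly GRCr8, 5′ to 3′ on the gene's own strand, with every match of a searched element in capitals. Bmal1 lies at chr1:176766078-176766327 (plus strand), Per2 at chr9:99496994-99497243 (minus strand), Nr1d1 at chr10:84231813-84232062 (minus strand) and Bhlhe41 at chr4:180569356-180569605 (minus strand).
Bmal1: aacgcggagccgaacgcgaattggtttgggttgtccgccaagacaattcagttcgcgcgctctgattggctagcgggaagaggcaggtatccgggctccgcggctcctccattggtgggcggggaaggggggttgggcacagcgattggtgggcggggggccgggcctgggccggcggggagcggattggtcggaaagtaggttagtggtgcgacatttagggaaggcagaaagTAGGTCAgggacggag
Per2: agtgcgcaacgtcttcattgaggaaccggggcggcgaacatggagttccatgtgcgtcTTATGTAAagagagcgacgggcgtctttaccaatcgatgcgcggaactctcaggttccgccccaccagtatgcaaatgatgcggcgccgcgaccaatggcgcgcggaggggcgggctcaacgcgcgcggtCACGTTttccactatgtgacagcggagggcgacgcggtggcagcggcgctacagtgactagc
Nr1d1: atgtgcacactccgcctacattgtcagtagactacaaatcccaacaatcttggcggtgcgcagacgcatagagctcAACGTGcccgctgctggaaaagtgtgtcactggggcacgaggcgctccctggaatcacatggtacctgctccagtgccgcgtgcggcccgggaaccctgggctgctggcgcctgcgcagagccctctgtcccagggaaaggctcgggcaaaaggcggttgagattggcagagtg
Bhlhe41: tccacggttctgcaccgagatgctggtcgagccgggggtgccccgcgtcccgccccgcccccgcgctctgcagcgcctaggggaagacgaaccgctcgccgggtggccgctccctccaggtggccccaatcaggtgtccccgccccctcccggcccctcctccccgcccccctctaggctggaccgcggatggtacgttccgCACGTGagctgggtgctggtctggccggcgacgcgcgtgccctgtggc

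The element searched as the core that REV-ERB and ROR receptors bind, TAGGTCA, stood 16 to 10 bases before the start of Bmal1. Per2 held the E-box variant CACGTT 62 to 57 bases before its start and the D-box TTATGTAA 192 to 185 bases before it, Nr1d1 held the same E-box variant read on the other strand (AACGTG), 174 to 169 bases before its start, and Bhlhe41 held the E-box CACGTG 48 to 43 bases before its start. Both strands were searched, a palindrome counted 1 time, and 5.59% of the table's 33469 promoters held CACGTG, 4.07% CACGTT, 0.828% TTATGTAA, 0.108% TTACGTAA and 2.26% TAGGTCA. Of 29 clock genes looked up 24 had an entry, and 9 of these held at least 1 match: the 4 shown, Cry2, Ciart, Tef, Bhlhe40 and Gsk3b. A match is a description of the letters and not a measured binding site. The windows of Dbp, Per1, Per3, Nr1d2, Clock, Npas2 and Nfil3 held none of these letters, which says nothing of the factors. Cry1, Hlf and Csnk1d have no entry in the table.

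Levels below are log2 values of 1 probe set per gene, so that a difference of 1 is a doubling, and levels are compared between rats and not between genes. Calls needed both a fold change of 1.5 or more and a p of at most 0.01 after Benjamini-Hochberg adjustment over all 14217 genes (limma, with the stratum as a factor). Every fold and adjusted p for 1 d against the morning comes from that fit. It counts each rat separately, although rats of 1 study and day lay close together in Dbp and Bmal1, as described below. For such genes its SEs, intervals and p-values are likely too small. Of the 14217 genes 11 (0.0774%) were called, 8 higher at 1 d (0.0563%) and 3 lower (0.0211%). Of these 11 genes, 9 were members of the clock lists: Dbp, Per3, Nr1d2, Nr1d1, Per2 and Bhlhe41 were higher at 1 d, and Bmal1, Nfil3 and Npas2 were lower. The remaining called genes were Alox15 and Mest, both higher at 1 d. With no fold minimum, 262 genes (1.84%) passed the adjusted p, 221 higher (1.55%) and 41 lower (0.288%), and among those not called the largest fold was 1.49. At an unadjusted p under 0.05 there were 2273 genes. Dbp, Bmal1, Nr1d1 and Nr1d2 were called under each of 15 other ways of processing and fitting, while each of the other 7 called genes lost its call under 1 to 4 of them. The largest adjusted p in these fits was 0.0013 for Dbp, 0.0028 for Bmal1, 0.0079 for Nr1d1 and 0.0018 for Nr1d2. After a new quantile normalization between arrays 313 genes passed, 71.6% of them higher at 1 d, against 84.4% in the values as deposited.

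**Figure D1:**
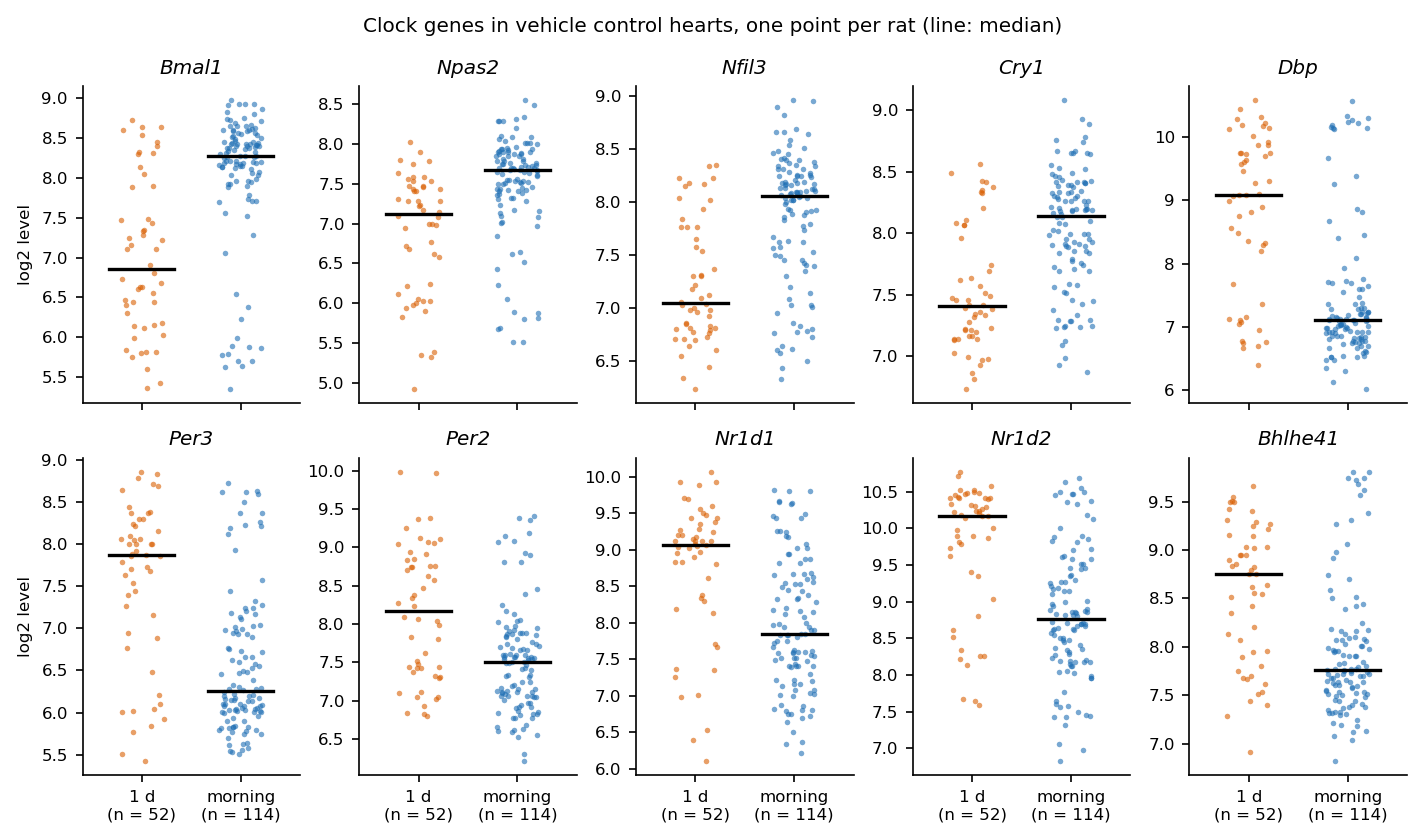
Level of 10 clock genes (vertical axis, log2 level) in each vehicle control heart, 1 d rats (n = 52, orange) left of morning rats (n = 114, blue), with the median as a line. The medians of Bmal1, Npas2, Nfil3 and Cry1 are lower at 1 d and those of Dbp, Per3, Per2, Nr1d1, Nr1d2 and Bhlhe41 higher, and the groups overlap for every gene.

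The activators were lower in 1 d hearts. Bmal1, the activator without which the loop stops, ran from 5.37 over a median of 6.86 to 8.73 at 1 d, against 5.35, 8.28 and 8.98 in the morning. Thus 42 of 52 1 d rats lay under the morning median and 14 of 114 morning rats under the 1 d median, and the ranges overlapped. It averaged 7.02 ± 0.98 at 1 d and 8.02 ± 0.88 in the morning (SD, n = 52 and 114), a log2 difference of -1.01 (SE 0.14, 95% interval -1.29 to -0.73, fold 0.497, adjusted p = 1.6e-07). Npas2, a relative of CLOCK that also pairs with BMAL1, ran from 4.93 over 7.12 to 8.02 at 1 d, against 5.51, 7.67 and 8.55 in the morning. Its log2 difference was -0.62 (SE 0.10, adjusted p = 6.72e-06), and 47 of the 52 1 d rats lay under the morning median. Clock itself moved least of the activators: its medians were 8.64 at 1 d and 8.84 in the morning, and its difference of -0.21 passed the adjusted p (0.0022) but not the fold minimum.

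Among the repressors that close the loop, 2 of 5 measured genes were called higher, Cry1 was lower and Per1 and Cry2 did not pass the test. Per3, a Period protein that is not essential to the rhythm in mice, ran from 5.43 over 7.87 to 8.85 at 1 d, against 5.50, 6.26 and 8.72 in the morning. The groups overlapped over nearly the whole range, although 42 of 52 1 d rats lay above the morning median and 14 of 114 morning rats above the 1 d median. Its difference was 0.97 (SE 0.14, fold 1.96, adjusted p = 2.13e-07). Per2, a Period protein that represses the activator pair, ran from 6.80 over 8.16 to 9.98 at 1 d, against 6.22, 7.50 and 9.41 in the morning, and differed by 0.61 (SE 0.12, fold 1.52, adjusted p = 0.000147). Its overlap was wider than that of Per3, with 34 of the 52 1 d rats above the morning median. Per1 differed by 0.15 (adjusted p = 0.281), and Cry2 by 0.08 (adjusted p = 0.325). Cry1, a cryptochrome, went the other way from the Period genes: its levels were 6.73, 7.41 and 8.56 (lowest, median, highest) at 1 d, against 6.87, 8.14 and 9.08 in the morning. It fell by 0.51 on the log2 scale (SE 0.08, adjusted p = 7.17e-07), short of the fold minimum.

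Both REV-ERB genes, which encode the haem-binding receptors that silence Bmal1, were higher in 1 d hearts. Nr1d2 (REV-ERB beta) ran from 7.59 over 10.18 to 10.77 at 1 d, against 6.83, 8.76 and 10.69 in the morning, with a difference of 0.92 (SE 0.13, fold 1.89, adjusted p = 3.52e-07). Nr1d1 (REV-ERB alpha) ran from 6.11 over 9.07 to 10.06 at 1 d, against 6.22, 7.85 and 9.82 in the morning, with a difference of 0.76 (SE 0.14, adjusted p = 4.31e-05). For each of the pair 42 of 52 1 d rats lay above the morning median, while 12 morning rats for Nr1d2 and 17 for Nr1d1 lay above the 1 d median. The measured ROR receptors, which compete with REV-ERB for the same element, showed differences of 0.09 for Rora (adjusted p = 0.467) and 0.02 for Rorb (adjusted p = 0.827).

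The output factors held the largest difference of the comparison. Dbp, the PAR bZIP activator named for the albumin D-box, ran from 6.40 over 9.08 to 10.58 at 1 d, against 6.01, 7.10 and 10.58 in the morning. The highest rat of each group thus stood at the same level to 2 decimals, 43 of 52 1 d rats lay above the morning median and 14 of 114 morning rats above the 1 d median. Dbp averaged 8.79 ± 1.27 at 1 d and 7.46 ± 1.10 in the morning (SD, n = 52 and 114), a difference of 1.34 (SE 0.17, 95% interval 1.00 to 1.68, fold 2.53, adjusted p = 1.8e-08). Its relative Tef had medians of 8.05 at 1 d and 7.75 in the morning and differed by 0.44 (adjusted p = 4.74e-06), and Hlf by 0.11 (adjusted p = 0.192). Nfil3, the repressor that opposes these factors at the D-box, differed the other way: it ran from 6.24 over 7.05 to 8.35 at 1 d, against 6.34, 8.05 and 8.96 in the morning, and fell by 0.62 on the log2 scale (SE 0.10, adjusted p = 1.86e-06). At 1 d 45 of 52 rats lay under the morning median of Nfil3. Bhlhe41 (DEC2), a repressor that binds E-boxes, ran from 6.91 over 8.75 to 9.66 at 1 d, against 6.82, 7.76 and 9.81 in the morning, a difference of 0.60 (SE 0.11, adjusted p = 3.23e-05). Its relative Bhlhe40 (DEC1) had medians of 7.63 at 1 d and 7.08 in the morning and differed by 0.45 (SE 0.11, adjusted p = 0.00646).

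The genes that act on clock proteins rather than on their transcription were nearly level. Of 7 measured of 9, only Usp2, a deubiquitinase known from mouse to act on clock proteins, passed the adjusted p: its medians were 9.75 at 1 d and 9.28 in the morning, a difference of 0.36 (SE 0.06, adjusted p = 4.16e-05). The casein kinases Csnk1d and Csnk1e, the ubiquitin ligase subunits Btrc and Fbxw11, the kinase Gsk3b and the PER partner Nono had differences between -0.05 and 0.04, none of which passed. Across all 6 clock lists, 14 of the 25 measured members (56.0%) passed the adjusted p, 9 higher and 5 lower, against 1.84% of all genes (1.55% higher and 0.288% lower). Of 12 measured genes from a list of clock-controlled outputs of the heart, 0 passed the same limma test, and the nearest were the transcription factors Klf9 at 0.21 (adjusted p = 0.0133) and Klf15 at 0.20 (adjusted p = 0.0265) and the tetraspanin Tspan4 at 0.21 (adjusted p = 0.0207).

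**Figure D2:**
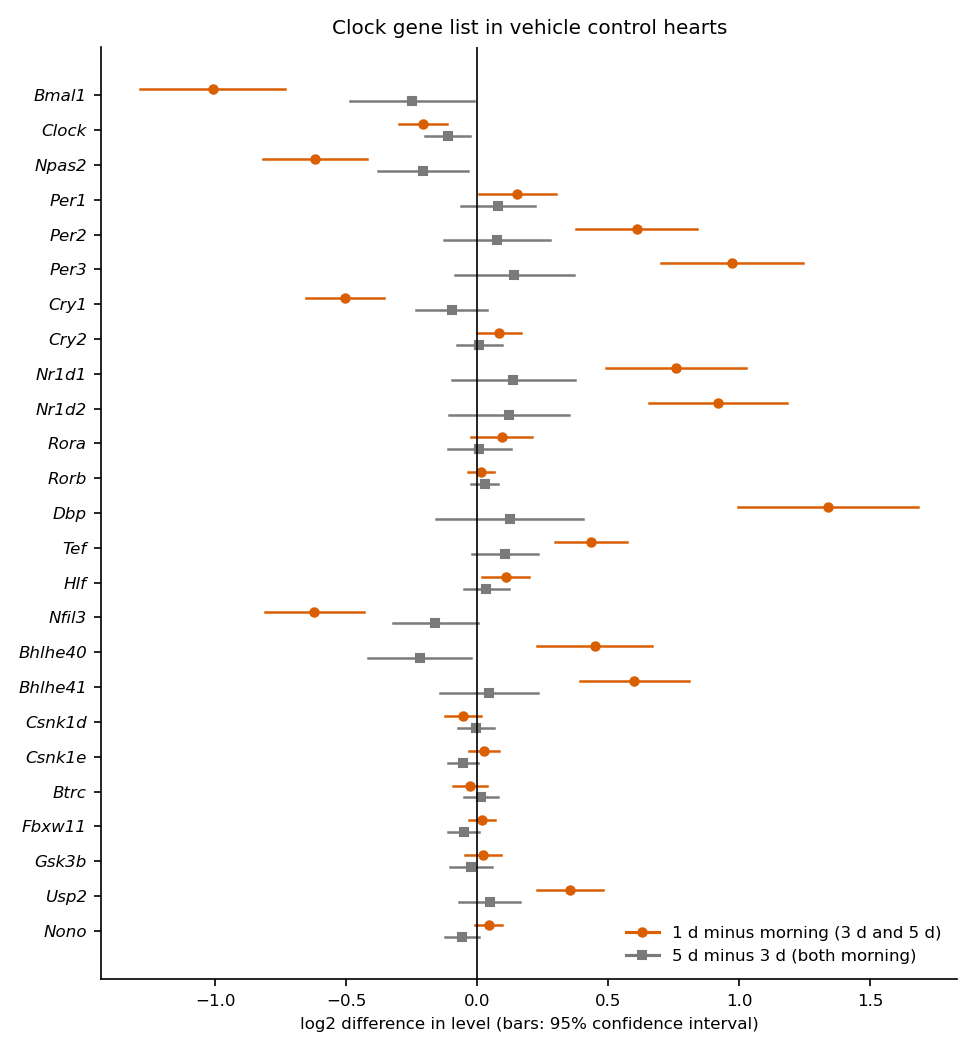
Log2 difference in level (horizontal axis) of the 25 measured clock list genes in vehicle control hearts, with 95% confidence intervals, for 1 d minus morning (orange circles) and 5 d minus 3 d, both morning (grey squares). Dbp lies at 1.34 and Bmal1 at -1.01 for 1 d minus morning, against 0.13 and -0.25 for 5 d minus 3 d.

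The morning durations, which share the planned harvest hour and differ in days of dosing and age, were also compared with each other. Over all strata that hold both, 76 rats of 5 d and 72 of 3 d were set against each other, and 0 genes (0%) were called and 0 (0%) passed the adjusted p with any fold by limma, while 2242 genes had an unadjusted p under 0.05. The lowest adjusted p was 0.0269, for Col6a2 at -0.18, Col15a1 at -0.18 and Cnn3 at -0.20, collagen chains and a calponin, which were named after their values were seen. Dbp differed by 0.13 (95% interval -0.16 to 0.41, adjusted p = 0.675) and Bmal1 by -0.25 (95% interval -0.48 to -0.01, adjusted p = 0.297). This comparison covers 3 d to 5 d and not the first days of dosing, and it shares morning rats with the first comparison. Whether its differences are unlike those of 1 d minus morning was not tested.

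The same 1 d rats were then set against each morning duration. These comparisons share the 1 d rats, so that they are given side by side. Against 3 d, 9 genes (0.0633%) were called, the clock genes named above, and 59 (0.415%) passed the adjusted p with any fold, 36 of them higher at 1 d (0.253%). Against 5 d, 15 genes (0.106%) were called and 489 (3.44%) passed, 438 higher (3.08%). Dbp differed by 1.44 against 3 d and 1.25 against 5 d, and Bmal1 by -1.17 and -0.86 in the same order. The 15 genes called against 5 d were Dbp, Per3, Nr1d2, Nr1d1 and Bmal1, together with Alox15, Mest, Postn, Inha and the cell division genes Ccnb2, Cdkn3, Prc1, Racgap1, Mki67 and Cks2. Of the 262 genes past the adjusted p against the whole morning group, 230 also passed against 5 d and 56 against 3 d.

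Alox15 and Mest, the called genes outside the clock lists, followed the second pattern. Alox15, an arachidonate lipoxygenase, ran from 6.81 over 8.47 to 11.13 at 1 d, against 6.03, 7.79 and 10.35 in the morning, a difference of 0.67 (SE 0.13, adjusted p = 0.000165). The difference was 0.46 against 3 d (adjusted p = 0.118) and 0.88 against 5 d (adjusted p = 1e-05), and among vehicle and route classes 6 of 7 were higher at 1 d. Mest, an imprinted gene expressed in growing tissue, ran from 6.16 over 7.76 to 9.13 at 1 d, against 5.06, 7.06 and 9.25 in the morning. It differed by 0.62 (SE 0.12, adjusted p = 0.000223), by 0.43 against 3 d (adjusted p = 0.126) and by 0.81 against 5 d (adjusted p = 1.3e-05). For both genes the 3 d rats thus lay between the 1 d and 5 d rats in mean level, and the 5 d minus 3 d differences of -0.46 for Alox15 and -0.43 for Mest did not pass the adjusted p.

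Genes of cell division were higher in 1 d hearts, by amounts under the fold minimum. Of 28 measured cell cycle genes 13 (46.4%) rose at the adjusted p, against 1.55% of all genes, and 0 fell, with a median difference over the list of 0.16, against 0.00 over all genes. Ccnb2, a B-type cyclin of mitosis, ran from 5.20 over 6.75 to 8.44 at 1 d, against 4.89, 6.25 and 8.17 in the morning, a difference of 0.54 (SE 0.10, adjusted p = 6.53e-05). The proliferation marker Mki67 differed by 0.47 and the mitotic kinase Cdk1 by 0.48, both past the adjusted p, and the groups overlapped for all of these. Much of the list was measured at low levels: only 7 members were among the upper 60% of genes by mean. In the fit to those upper genes 1 of the 7 rose, with a median difference of 0.07. With hybridisation batch as a fixed factor 5 of the 28 rose. When each study's rats of 1 day were averaged first, an alternative chosen after seeing the data, 8 of the 28 rose. Against 3 d 0 members passed by limma, with a median of 0.13, and against 5 d 16 rose (57.1%, against 3.08% of all genes), with a median of 0.22. In bulk tissue more dividing cells and more RNA of these genes per cell cannot be told apart, and fewer cells of a type cannot be told apart from less RNA per cell in any result here.

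**Figure D3:**
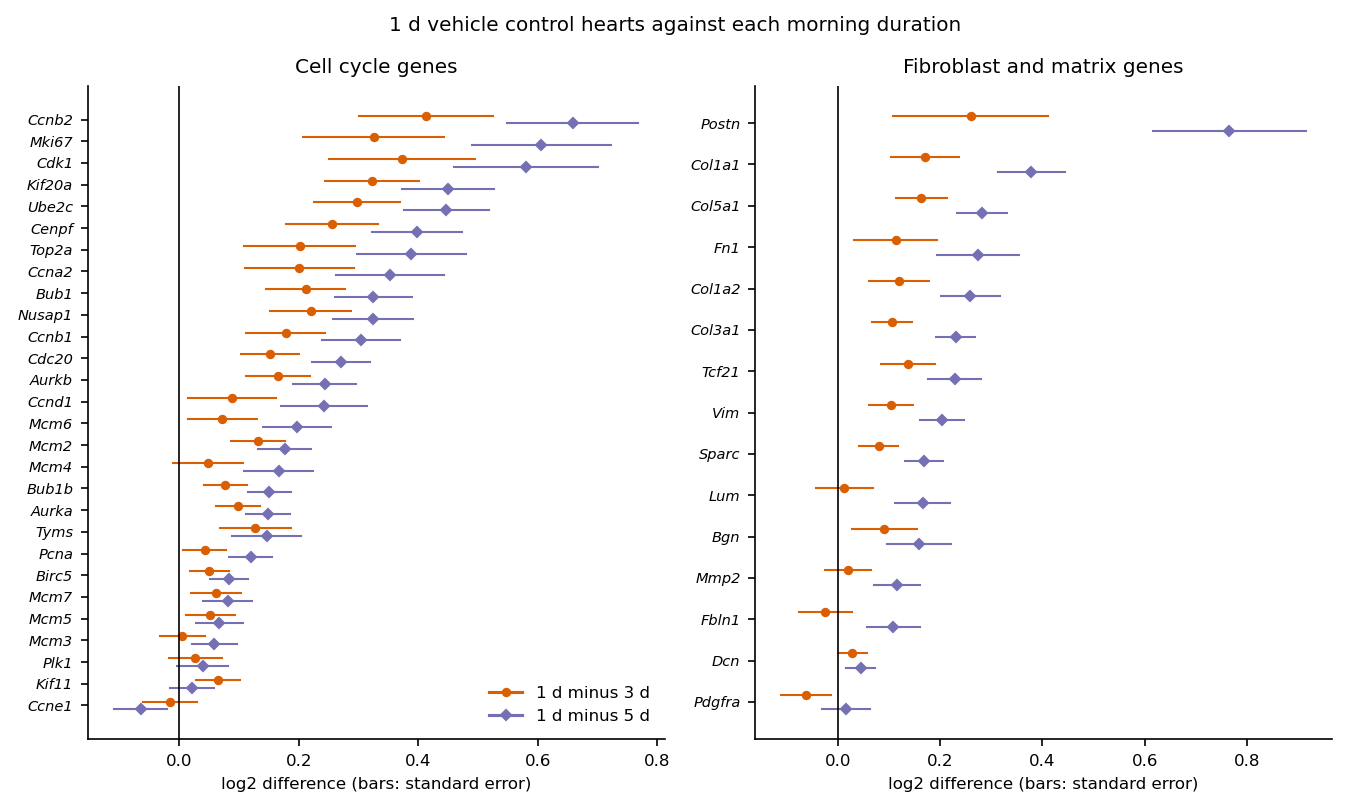
Log2 difference (horizontal axis, bars are standard errors) of measured cell cycle genes (left) and fibroblast and matrix genes (right) in 1 d vehicle control hearts minus 3 d hearts (orange circles) and minus 5 d hearts (purple diamonds). Ccnb2 lies at 0.41 and 0.66 and Postn at 0.26 and 0.77, and both sets of differences use the same 1 d rats.

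Matrix genes moved in the same direction. Of 15 measured genes of fibroblasts and matrix 6 (40.0%) rose at the adjusted p, against 1.55% of all genes. They were named after their values were seen: Postn, the matrix protein periostin, at 0.52 (SE 0.14, adjusted p = 0.0099), the collagen chains Col1a1 at 0.28, Col5a1 at 0.22 and Col3a1 at 0.17, the fibroblast transcription factor Tcf21 at 0.18 and the intermediate filament Vim at 0.16. Of the defining fibroblast markers Col1a1, Dcn and Pdgfra, Col1a1 thus passed, while Dcn at 0.04 and Pdgfra at -0.02 did not. Summed over the list, the log2 level ran from 15.09 over 15.40 to 16.28 at 1 d, against 14.60, 15.28 and 15.84 in the morning. Against 3 d 0 members passed and against 5 d 8 did (53.3%, against 3.08% of all genes), and the part of changed cell makeup in these differences was not tested. When each study's rats of 1 day were averaged first, an alternative chosen after seeing the data, 1 of the 15 genes passed, and with hybridisation batch as a fixed factor 2 did.

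Among the other marker lists only red blood cell genes held members past the test. Alas2, the first enzyme of haem synthesis in red cell precursors, was higher by 0.44 (SE 0.09, adjusted p = 0.000223) and the globin Hbb by 0.21. These were 2 of 7 measured (28.6%, against 1.55% of all genes). Against 3 d 0 members passed, and against 5 d 4 rose (57.1%, against 3.08% of all genes). The summed log2 level of the list ran from 13.58 over 14.02 to 14.65 at 1 d, against 12.61, 13.86 and 14.38 in the morning. The part of blood held in the tissue was not tested. Heart muscle genes set the identity of the samples: the median of 21 heart muscle markers ran from 13.44 to 13.77 at 1 d and from 13.31 to 13.81 in the morning, and 0 of them passed. The same holds for markers of atrium, fast skeletal muscle, liver, adipocyte, endothelial cell, smooth muscle, macrophage, lymphocyte, neutrophil and mesothelial cell. In 4 arrays, 1 at 1 d and 3 in the morning, liver or adipocyte markers were far above the rest, and without them 10 genes were called, with Per2 at 0.58 as the gene lost, 10 cell cycle genes rose and 4 fibroblast genes rose.

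Immediate early genes, which respond within minutes to handling and other stimuli, had a median difference of -0.24. All 21 measured members lay below 0, between -1.04 and -0.0035, and 0 passed the limma test, the lowest being Fos at -1.04 (SE 0.45, adjusted p = 0.207) and Fosb at -0.80 (adjusted p = 0.0521). Of 19 measured glucocorticoid targets 1 passed (5.26%, against 1.84% of all genes): Cdkn1a, the cell cycle inhibitor p21, which also belongs to the p53 list, fell by 0.45 on the log2 scale (SE 0.08, adjusted p = 6.81e-05). Of 10 measured genes of hypertrophy and stretch 1 fell and 1 rose at the adjusted p (20.0% together, against 1.84% of all genes). Rcan1, an inhibitor of calcineurin, fell by 0.46 (adjusted p = 8.87e-07). Tcap, a protein of the sarcomere's Z disc, rose by 0.38 (adjusted p = 0.000335). Rcan1, Tcap and Cdkn1a were named after their values were seen. Rcan1 ran from 9.83 over 11.02 to 12.56 at 1 d, against 10.06, 11.42 and 13.09 in the morning, and Tcap from 11.58 over 12.89 to 13.61 at 1 d, against 11.30, 12.31 and 13.57, so that the groups overlapped for both. Rcan1 differed by -0.45 against 3 d and by -0.47 against 5 d, and Tcap by 0.45 against 3 d and by 0.31 against 5 d (adjusted p = 0.011). Single members passed in 4 other lists of 16 to 30 measured genes, 3.33% to 6.25% of a list against 1.84% of all genes, which is no result about these lists. They were named after their values were seen: Edem1 of the unfolded protein response at 0.17, the proteasome subunit Psma4 at 0.11, the potassium channel gene Kcnh2 at 0.19 and Ucp3, a mitochondrial uncoupling protein, at -0.35. No member of the lists for heat shock, integrated stress response, glucose metabolism, cholesterol synthesis, calcium handling, muscle protein turnover, oxidative phosphorylation or interferon response passed.

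Dbp was higher and Bmal1 lower at 1 d in each class of vehicle and route, and the size of the difference varied. For the 7 classes with 3 or more 1 d rats, Dbp differed between 0.77 for saline by mini-pump and 2.46 for subcutaneous corn oil, and Bmal1 between -1.97 for the acacia mixture and -0.60 for water and for CMC by gavage. The acacia mixture gave the clearest separation: Bmal1 stood at 6.41, 6.64 and 6.68 in the 1 d rats, against 8.22, 8.26, 8.34, 8.74, 8.83 and 8.87 in the morning rats, without overlap. Dbp of the same rats stood at 8.20, 8.30 and 8.49 at 1 d, against 6.12 to 6.98 in the morning. After subcutaneous corn oil the groups did not overlap either, with Dbp at 8.89, 9.93 and 10.58 at 1 d, against 6.91 to 7.70 in 6 morning rats. In the mini-pump class Dbp averaged 9.69 at 1 d and 8.93 in the morning, the highest morning mean of the 7 classes. That morning mean joins unlike sets. In campaign 1 Dbp stood at 7.06 and 7.14 in 3 d rats and at 10.23 and 10.31 in 5 d rats. In campaign 4 it ran from 8.41 to 8.86 at 3 d and from 8.81 to 10.33 at 5 d. Cry1 differed by 0.05 and Nfil3 by 0.06 in that class, while Bmal1 differed by -1.48.

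**Figure D4:**
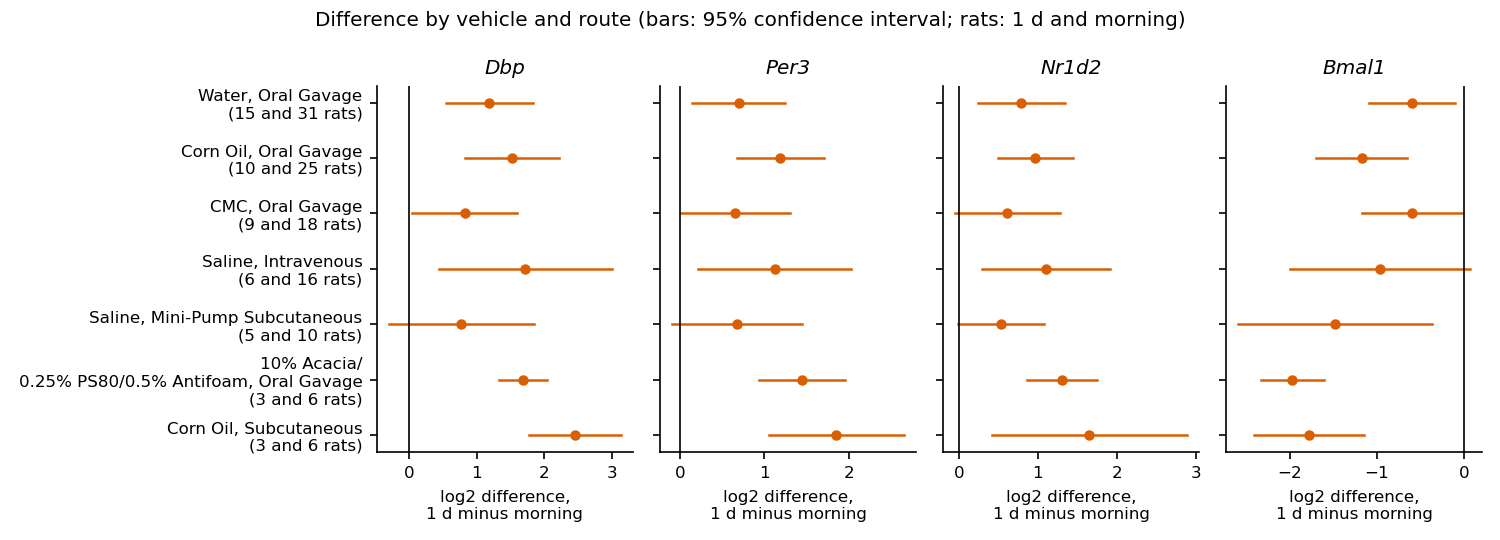
Log2 difference in level, 1 d minus morning (horizontal axis, bars are 95% confidence intervals), of Dbp, Per3, Nr1d2 and Bmal1 for each vehicle and route class, with the numbers of 1 d and morning rats. Dbp, Per3 and Nr1d2 lie above 0 and Bmal1 below 0 in all 7 classes, and some intervals of single classes reach past 0.

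The interaction of the 1 d difference with class was tested over all genes, and 2 genes (0.0141%) passed an adjusted p of 0.01, neither of them a clock gene, while 1118 had an unadjusted p under 0.05. Filip1, which acts on filamin, differed by -0.81 with the acacia mixture and by 0.63 with the mini-pump (adjusted p of the interaction = 0.00119). Uck2, a uridine and cytidine kinase, differed by -1.15 with the acacia mixture and by 0.03 with intravenous saline (adjusted p of the interaction = 0.00792). By extraction campaign Dbp differed by 1.12 in campaign 1 (37 rats at 1 d against 84), 2.40 in campaign 2 (3 against 6), 1.57 in campaign 4 (6 against 12) and 1.97 in campaign 5 (6 against 12), and Bmal1 by -0.78, -1.32, -1.80 and -1.53 in the same order.

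Rats of 1 study, treated with the same vehicle by the same route and harvested on the same day, lay closer to each other in Dbp and Bmal1 than the means of such sets did. The SD of Dbp within such a set was 0.35 at 1 d and 0.36 in the morning, against an SD of the set means of 1.34 at 1 d and 1.06 in the morning. For Bmal1 the SD within a set was 0.28 at 1 d and 0.39 in the morning, against 1.02 and 0.83 between set means. For Mest the SD within a set was 0.41 at 1 d and 0.69 in the morning, against 0.68 and 0.82 between set means. For Alox15 the SD within a set was 0.82 at 1 d and 0.66 in the morning, against 0.68 and 0.80 between set means. Rats of a set thus also lay closer in Mest, and in Alox15 in the morning, by smaller margins than in Dbp and Bmal1. Alox15 at 1 d did not share this. Within a set the widest spread of Dbp was 1.19 at 1 d and 1.52 in the morning, over 11 and 22 sets with 2 or more rats. The wide ranges of Dbp and Bmal1 thus lay mainly between sets. The SDs within a set rest on those 11 and 22 sets, with 27 and 56 rats. The SDs of set means cover all 36 and 80 sets, most of which held a single rat, so that they include spread between rats. Over 2000 genes the estimated correlation was 0.0778 within a set and 0.269 within a hybridisation batch. Each is a single value for all genes that does not describe Dbp and Bmal1. The alternatives with a random block apply such a single value to every gene. They therefore cannot show how the closeness of rats within a set affects the p-values of Dbp and Bmal1. Sets also differ in vehicle, route, campaign and hybridisation batch, whose part in this spread was not tested.

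**Figure D5:**
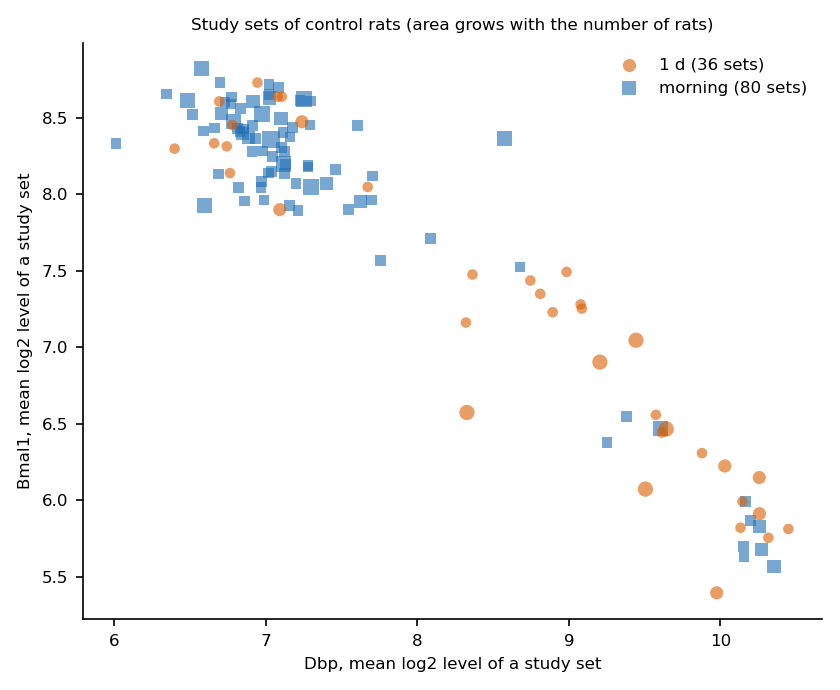
Mean log2 level of Dbp (horizontal axis) and of Bmal1 (vertical axis) in each study set of control rats, 36 sets at 1 d (orange circles) and 80 in the morning (blue squares), with the area of a symbol growing with the number of rats. Morning sets crowd at low Dbp and high Bmal1 around medians of 7.09 and 8.28, and sets of both groups lie at the opposite end.

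Among 6 clock genes, the 15 pairs had an absolute Pearson r across rats from 0.50 to 0.95 (median 0.86) at 1 d and from 0.56 to 0.89 (median 0.82) in the morning, and an absolute Spearman's rho from 0.52 to 0.92 at 1 d and from 0.29 to 0.85 in the morning. Of the closer pairs, Dbp and Bmal1 correlated at r = -0.92 at 1 d and -0.89 in the morning (n = 52 and 114, Spearman's rho -0.90 and -0.62), Dbp and Per3 at 0.94 and 0.87 (rho 0.92 and 0.56) and Bmal1 and Npas2 at 0.87 and 0.89 (rho 0.90 and 0.59). The loosest were Nfil3 and Npas2 at 1 d (0.50) and Nr1d2 and Npas2 in the morning (-0.56). These are descriptions over rats that share studies and hybridisation batches. Set means of Dbp ran from 6.40 to 10.45 at 1 d and from 6.01 to 10.35 in the morning. Thus 13 of 114 morning rats, from 8 of 44 studies, lay past the 1 d median in both Dbp and Bmal1, and 7 of 52 1 d rats, from 6 of 33 studies, lay past the morning median in both. The labels put these rats in the same harvest schedule as the rest of their group.

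Within single studies the direction mostly held. In 33 comparisons of 1 d with morning rats of 1 study with the same vehicle, route and campaign, Bmal1 and Npas2 were lower at 1 d in 28 each, Cry1 in 26 and Nfil3 in 24. Tef was higher at 1 d in 28, Dbp in 27, Per2, Bhlhe41 and Usp2 in 26 each, and Per3, Nr1d1 and Nr1d2 in 25 each. The within-study difference of Dbp ran from -0.89 over a median of 1.69 to 3.32, and that of Bmal1 from -2.40 over -1.03 to 0.78. When every set of 1 study and day was replaced by its mean, 9 genes were called, 7 of them among the 11, with Dbp, Per3, Nr1d1, Nr1d2, Bmal1, Nfil3 and Mest called and Per2 (adjusted p = 0.0313), Alox15 (0.0158), Npas2 (-0.53) and Bhlhe41 (0.56) no longer called. This alternative was chosen after seeing the data.

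A shorter duration was also harvested in the afternoon, in corn oil rats only. Against 19 morning corn oil rats of campaign 1, the 3 rats of 0.25 d gave 1 called gene (0.00703%), the DnaJ co-chaperone gene Dnajb5 at -0.94 (adjusted p = 0.0013), and against 7 rats of 1 d they gave 0 (0%), with 830 and 360 genes at an unadjusted p under 0.05. Dbp stood at 8.16, 9.76 and 9.93 at 0.25 d, against 6.52, 6.90 and 10.17 (lowest, median, highest) in the morning rats, a difference of 2.19 (SE 0.47, adjusted p = 0.154). Bmal1 stood at 6.71, 6.79 and 7.77 at 0.25 d, against 5.99, 8.32 and 8.93 in those morning rats. The 1 d rats of this class ran from 6.76 over 7.15 to 10.19 for Dbp, so that most of them lay nearer to the morning rats than to the 0.25 d rats. Leaving out either of 2 of the 3 rats of 0.25 d ended the call of Dnajb5.

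Rats that received a compound followed the same schedule and share no array with the controls. Some of their studies also held control rats, so that the treated rats are not an independent repeat of the comparison. In 97 treated rats of 1 d against 180 of 3 d or 5 d, matched within compound, dose, vehicle, route and campaign over 33 strata, 25 genes (0.176%) were called, and 1014 (7.13%) passed the adjusted p with any fold, 412 higher (2.9%) and 602 lower (4.23%). Changes of the compound's effect with time are part of these differences. Dbp was higher by 0.99 (SE 0.11, adjusted p = 4.58e-13), Per3 by 0.74, Per2 by 0.64 and Nr1d2 by 0.55, and Bmal1 fell by 0.82 on the log2 scale (SE 0.09, adjusted p = 7.51e-14). Of 21 immediate early genes 9 fell at the adjusted p (42.9%, against 4.23% of all genes), and Fos at -1.26, Egr1 at -0.68 and Fosb at -0.62 were called. Other lists also had large shares in treated rats. Interferon response genes rose in 16 of 20 cases (80.0%, against 2.9% of all genes), with a median of 0.48. Cholesterol synthesis genes fell in 7 of 16 cases (43.8%, against 4.23% of all genes). Of the 11 genes called in controls all passed the adjusted p in treated rats in the same direction, and 5 were called there, 45.5% of the control calls and 20% of the 25 treated calls. Of the 262 genes past the adjusted p in controls, 129 passed in the same direction in treated rats, 49.2% of that list and 12.7% of the treated list, and 0 passed in the opposite direction. The size of the difference was tested between controls and treated rats, and 9 genes (0.0633%) differed at an adjusted p of 0.01, none a clock gene. Among them the control minus treated difference was -0.93 for Alas2, -0.81 for Hbb and -0.73 for Hba-a3, red cell genes that were higher at 1 d by 1.37, 1.02 and 1.07 in treated rats and by 0.44, 0.21 and 0.34 in controls.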

How the data were processed

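Hearts of male rats were hybridised singly to Affymetrix arrays. The authors deposited log2 values per probe set; the submitters' processing notes name RMA, with no version in any source used here, and the study's methods name frma and frmaTools, so that which of these made the values is unsettled. The values, from 3.15 to 14.8, were used as deposited. Precision is limited by the number of rats, since an array has no depth; p-values measure the spread between rats, which shared studies and batches. Of 31099 probe sets the 57 controls were left out; 20832 had 1 symbol, 436 several and 9831 none, and 20764 matched the RefSeq gene table by gene ID, with no symbol updated. Each of 14217 genes was read from 1 probe set, the one whose mean across the 862 arrays was highest, with a choice for 4525 genes.

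Groups, vehicles and routes came from the labels. Mini-pump rats whose route label says only subcutaneous were kept as mini-pump rats, and campaigns are runs of extraction days parted by more than 30 days. Models were fitted by lmFit and eBayes of limma 3.58.1 under R 4.3.3, with tables read by the data.table package (version 1.17.8), after tests on simulated data, and figures matplotlib 3.10.9 in Python 3.11.15. Arrays stood apart when the median of liver markers exceeded 8, that of adipocyte markers 7, or the correlation with the mean array fell under 0.95. Intervals are at 95%. Named were the clock list members, called genes of largest difference with 1 sign in every class, called list members and up to 5 genes in each direction called elsewhere; other names are marked. The comparison, the gene lists and the tests were chosen with earlier results of these data known. Alternatives were the study or extraction day matched, batches as fixed or random blocks, other probe set, filter and normalization choices, the methods' t-test, and rats or strata left out.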

Additional observations from a re-analysis of the deposited data

Results flagged for a closer look

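In 11 groups of 4 to 10 control rats of 1 vehicle, route, campaign and day, the 11 called genes, 9 of them clock genes, gave 121 combinations, and in 13 of them the highest or lowest rat stood apart by Dixon's criterion, which chance meets in about 1 in 20. The 13 came from 5 rats, with up to 5 in 1 rat, and clock genes of a rat correlate, so that they are not separate events. After CMC by gavage the lowest of 9 rats of 3 d had Nfil3 at 6.96, and of 9 rats of 5 d the lowest Bmal1 was 6.38, the highest Dbp 9.25 and the highest Bhlhe41 9.06. After corn oil by gavage, of 8 rats of 3 d the lowest Bmal1 was 5.99, the lowest Npas2 6.43, the highest Dbp 10.17, the lowest Nfil3 6.64 and the highest Bhlhe41 9.38. After water by gavage the lowest Npas2 of 9 rats of 1 d was 5.32, and of 9 rats of 3 d the lowest Bmal1 was 5.70, the lowest Npas2 5.82 and the highest Bhlhe41 9.31. All flags but the Npas2 value at 1 d fell in morning groups, each on the side of the 1 d rats.

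The difference between 1 d and morning varied with vehicle and route for Filip1 (adjusted p of the interaction = 0.00119) and Uck2 (adjusted p of the interaction = 0.00792), by limma. It was smaller in controls than in treated rats for 3 red cell genes, with a control minus treated difference of -0.93 for Alas2, -0.81 for Hbb and -0.73 for Hba-a3 on the log2 scale (limma adjusted p = 2.76e-06, 0.00131 and 5.17e-05 in the same order).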

How the results depend on the processing

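The count of 11 called genes ran from 8 to 12 over 15 other ways of processing, from 9 to 12 with each of the 52 rats of 1 d left out in turn and from 9 to 13 without each of 12 strata, and none of the called genes turned its direction. With hybridisation batch as a fixed factor 8 genes were called, without Bhlhe41, Alox15 and Mest, and with extraction day matched 9 of the 11, without Nfil3 and Bhlhe41. With the mean of all probe sets 9 were called, without Per2 (0.30) and Per3 (0.52).

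The count of 262 genes at an adjusted p of 0.01 or less with any fold moved further: it was 124 (95 higher, 29 lower) with hybridisation batch as a fixed factor, and 81 (67 higher, 14 lower) with the mean of each study set in place of its rats, an alternative chosen after seeing the data. It was 155 without corn oil by gavage in campaign 4, 129 without intravenous saline in campaign 1 and 158 without water by gavage in campaign 5, and ran from 200 to 299 with single 1 d rats left out and up to 320 over the other alternatives. With hybridisation batch as a random block 1 gene passed the interaction of 1 d with vehicle and route. The call of the 0.25 d rats against the morning was 0 to 1 gene with each of 3 rats left out. The cause of these moves was not tested, beyond the fewer rats in some fits. Under the set means Clock (adjusted p = 0.131), Usp2 (0.0208) and Bhlhe40 (0.252) no longer passed. The 5 d against 3 d comparison gave 0 called genes in 8 alternatives, 1 d against 3 d 9 to 11, 1 d against 5 d 12 to 16 and treated rats 20 to 30. The labels give the rats no replicate numbers to pair them by; with rats matched within their study, vehicle, route and campaign (49 against 88 rats), 12 genes were called, the 11 and Bhlhe40.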

Other observations

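Control rats of durations outside the comparison were few. In 3 corn oil rats of 7 d Dbp stood at 6.68, 6.77 and 7.00 and Bmal1 at 8.45, 8.50 and 8.60, within the range of morning rats. In 2 rats of 4 d Dbp stood at 6.65 and 8.37 and Bmal1 at 7.92 and 8.40. No source used here gives the harvest hour of these durations.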
